A study of Mus musculus with 12 samples.

Results

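Collagens and the proteins that fold, modify, trim and crosslink them were followed in 12 libraries of ribosome-bound RNA from mouse colon. The set was chosen by name: every annotated gene whose symbol has the form of a collagen chain, and 12 named processing genes, of which 9 stood alone in the table. This gave 47 genes (38 collagen chains and 9 processing genes) of 24394 gene symbols, and 34 of the 47 (25 chains and all 9 processing genes) reached 1 FPKM in at least 3 libraries and were tested. FPKM is the number of fragments scaled to transcript length and library size, so levels can be compared between genes, but it hides how deeply each library was read.

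The RNA came from the myenteric plexus, the nerve net between the muscle layers of the gut, of C57BL/6 mice of the genotype Sox10::CreERT2+/- / Rpl22tm1.1Psam/J. In these mice tamoxifen in the chow (400 mg/kg for 2 weeks, then 1 week of plain chow) releases a Cre recombinase made under Sox10, a gene of glia, and the Cre switches on an HA tag on the ribosomal protein Rpl22. Tagged ribosomes were then pulled down from dissected plexus, so RNA of untagged cells can be carried along. The 4 groups of 3 libraries, all with the same genotype and tamoxifen, were DNBS_Vehicle, Saline_Vehicle, DNBS_GR159897 and Saline_GR159897. DNBS, a hapten that inflames the colon, was given once as an enema of 0.1 mL with 5 mg in 50% ethanol, and the other mice had an enema of saline. GR159897 blocks the neurokinin-2 receptor, which neurokinin A activates, and was injected at 0.5 mg/kg daily for 3 days from 24 hours before the enema; vehicle mice had 0.1% DMSO. Tissue was taken 48 hours after the enema. No ethanol is given for the saline enema, so DNBS and its solvent cannot be told apart in these data. The labels state no age. Females gave 2 of 3 libraries in DNBS_GR159897 and 1 of 3 in every other group.

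As background, collagen chains are folded into triple helices in the endoplasmic reticulum, where lysyl hydroxylases and a galactosyltransferase modify them and the chaperone HSP47 (Serpinh1) holds the helix together. Outside the cell the ends of fibrillar procollagens are cut off, among others by Bmp1, and lysyl oxidases crosslink the assembled fibres. Fibrillar types build connective tissue, type IV builds the sheet-like basement membrane that also covers the surface of enteric ganglia, and other types bind to fibrils or span the cell membrane.

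The libraries were not of equal quality. S100b and Sox10, markers of glia, were above 1 FPKM in all 12, and a set of 9 glial markers with usable values (Gfap was blank in the 3 Saline_Vehicle libraries and was left out) summed to 363 to 792 FPKM in DNBS_Vehicle libraries, against 755 to 1328 FPKM in Saline_Vehicle libraries. The sums were 14.8, 240 and 399 FPKM in DNBS_GR159897 libraries, against 802 to 1988 FPKM in Saline_GR159897 libraries. Of the 9, Foxd3 and Sox2 were each listed at 0 in most libraries. In DNBS_GR159897 replicate 1 the epithelial markers summed to 1248 FPKM, against at most 52.4 FPKM elsewhere, and its collagen chains summed to 81.0 FPKM, against 439 to 640 FPKM in the other 11. Loci that hold an annotated transcript took 22.6% to 84.0% of the summed FPKM in DNBS libraries and 75.4% to 95.1% in saline libraries. Many results are therefore given with and without DNBS_GR159897 replicate 1, and the others with all 12 libraries only. In pulled-down RNA of whole plexus, fewer cells of a type and less RNA per cell cannot be told apart.

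Sparc and the chaperone Serpinh1 stood highest in the set. Sparc, a secreted protein that binds collagen, averaged 1902 FPKM over the 12 libraries and was the fifth most abundant annotated gene of the table. Serpinh1 averaged 93.8 FPKM, ahead of Col18a1 (79.2 FPKM), Col4a1 (50.0 FPKM), Col16a1 (49.7 FPKM), Col9a2 (42.2 FPKM) and Col4a2 (39.9 FPKM). The fibrillar chains of ordinary connective tissue were lower: Col1a1 averaged 18.7 FPKM and Col1a2 17.8 FPKM. A locus that merges Col3a1 with a second gene averaged 50.4 FPKM. The 13 genes below the limit averaged at most 0.43 FPKM and are not tested: Col11a2, Col4a6, Col25a1, Col8a2, Col10a1, Col9a1, Col24a1, Col17a1, Col22a1, Col4a3, Col6a5, Col6a4 and Col6a6.

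**Figure D1:**
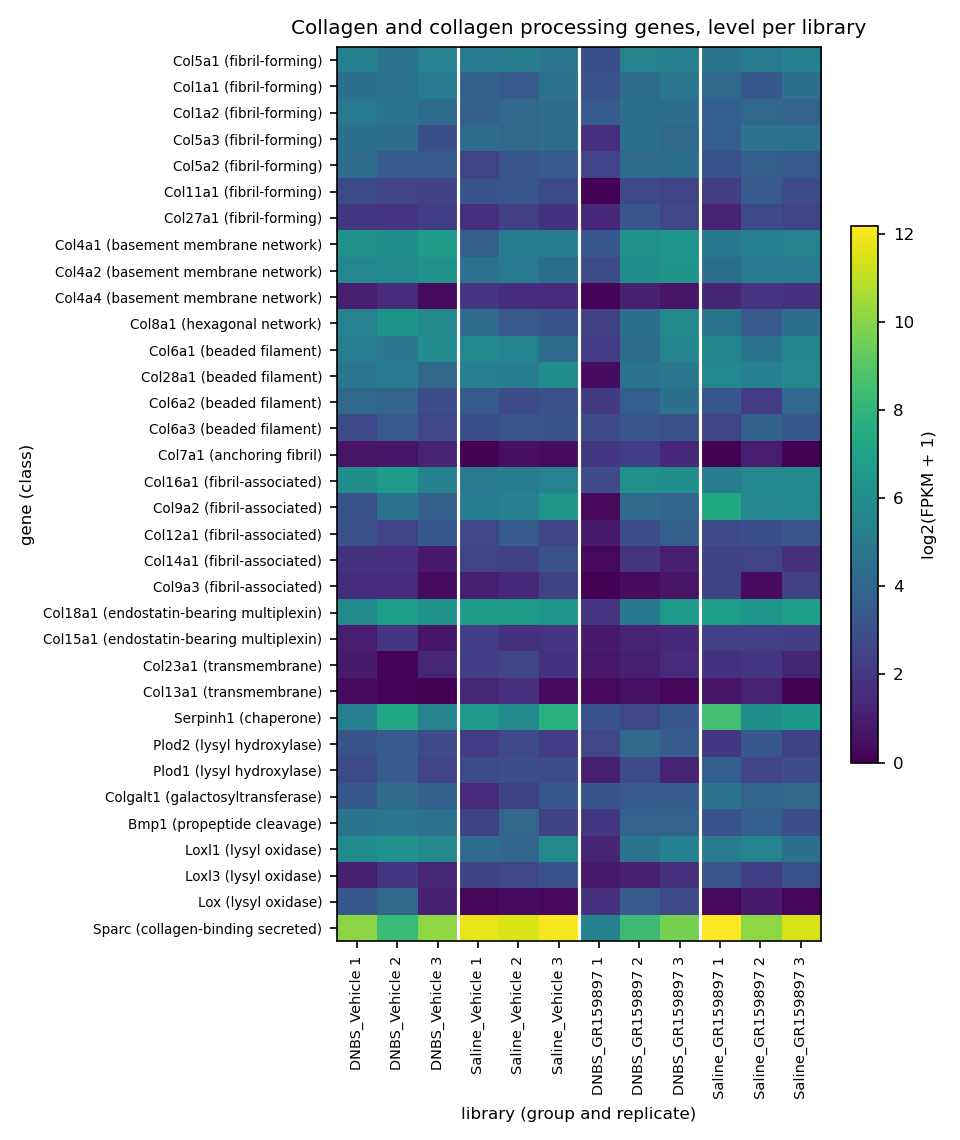
Level of the 34 tested collagen and collagen processing genes in each of the 12 libraries, as log2(FPKM + 1), with genes in rows grouped by class and libraries in columns grouped as DNBS_Vehicle, Saline_Vehicle, DNBS_GR159897 and Saline_GR159897. Sparc is the brightest row (40.2 to 4654 FPKM), and DNBS_GR159897 replicate 1 is darker than the other 11 columns for most chains.

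The first question was which of these genes differ with DNBS, taken as the mean of the DNBS changes in both drug arms. Lox, a lysyl oxidase, and Col7a1, the chain of anchoring fibrils, were higher with DNBS. Both reached 1 FPKM only in DNBS libraries (6 for Lox and 4 for Col7a1). They thus entered the test only through the libraries where they are high. Loxl3, Serpinh1, Col9a2, Sparc, Col14a1, Col15a1 and Col23a1 were lower. That was 9 of 34 genes past an adjusted p of 0.05 (limma, adjusted by Benjamini-Hochberg over all genes), where 9.6% of all 12777 genes passed. Of the 34, 2 passed as higher (2.76% of all genes) and 7 as lower (6.83% of all genes). The median log2 fold change was −0.23 over the 34 genes and −0.18 over all genes. With FPKM rescaled to the annotated total of each library the median of all genes was −0.04, and with each library centred on its median it was 0.02. The genes called over the whole table were 353 higher and 873 lower as deposited, 405 and 613 after rescaling, and 564 and 497 after centring. Under both scalings 6 of the 34 passed, Lox and Col7a1 as higher and Loxl3, Serpinh1, Col9a2 and Sparc as lower.

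Leaving out DNBS_GR159897 replicate 1 changed which chains passed. Then 10 of 34 genes passed (9.5% of all genes), 6 as higher (3.83% of all genes) and 4 as lower (5.67% of all genes). The 6 higher genes were Lox, Col4a2, Col8a1, Col4a1, Col7a1 and Bmp1, and the 4 lower genes were Sparc, Col9a2, Loxl3 and Serpinh1. The median log2 fold change was then 0.04 over the 34 genes and −0.12 over all genes. Lox and Loxl3 passed in all 12 fits that left out 1 library each and in all 9 other settings. Fits that left out a library gave between 2 genes (Lox and Loxl3, without Saline_Vehicle replicate 3) and 10 genes (without DNBS_GR159897 replicate 1 or replicate 3), with 3 genes without Saline_Vehicle replicate 1 or Saline_GR159897 replicate 1. The count was 4 without DNBS_Vehicle replicate 1, Saline_Vehicle replicate 2 or Saline_GR159897 replicate 3.

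**Figure D2:**
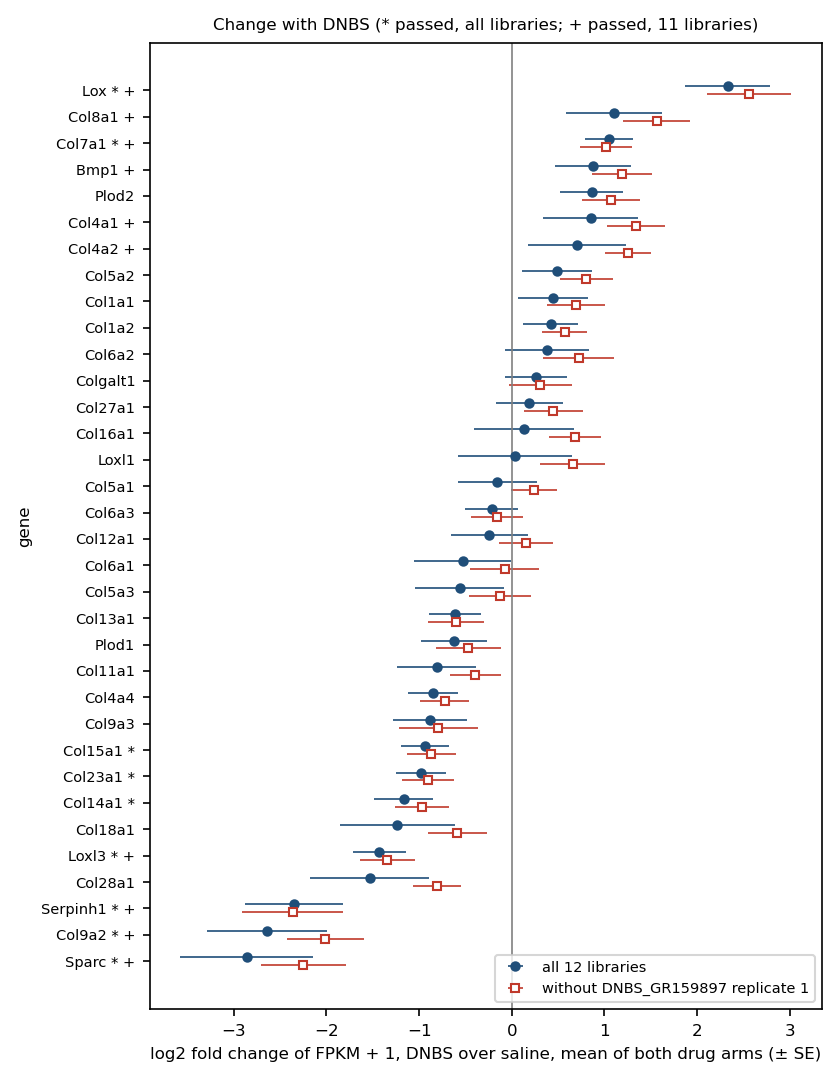
Log2 fold change of FPKM + 1 with DNBS over saline, mean of both drug arms, with its SE, for the 34 genes in all 12 libraries (filled circles) and without DNBS_GR159897 replicate 1 (open squares). Lox lies furthest to the right (2.33 and 2.56) and Sparc furthest to the left in all 12 libraries (−2.86); Col4a1, Col4a2 and Col8a1 move to the right without that library.

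Within each arm few genes passed. DNBS_Vehicle against Saline_Vehicle gave 0 of 34 genes (0.321% of all genes passed). Without DNBS_GR159897 replicate 1, which enters this comparison only through the shared estimate of spread, Col8a1 passed (1 of 34, where 1.38% of all genes passed). DNBS_GR159897 against Saline_GR159897 gave 1 of 34 genes, Serpinh1 (1.38% of all genes passed). Without DNBS_Vehicle replicate 3 Lox passed in both arms (1 gene under vehicle, 2 under the antagonist), and without DNBS_GR159897 replicate 3 the antagonist arm gave 6 genes. Over the whole table that comparison called 49 genes higher and 127 lower as deposited, 50 and 41 after rescaling to the annotated total, and 52 and 42 after centring on the library median. All 3 DNBS_Vehicle libraries lay above all 3 Saline_Vehicle libraries for 8 of 34 genes (9.53% of all genes) and below them for 8 (14.9% of all genes). All 3 DNBS_GR159897 libraries lay above all 3 Saline_GR159897 libraries for 2 genes (6.67% of all genes), Lox and Col7a1, and below them for 8 (17.6% of all genes).

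Among the genes that act inside the cell, Serpinh1, also known as HSP47, is a chaperone dedicated to procollagen. Its 3 lowest values of the 12 libraries were those of the DNBS_GR159897 group. It stood at 7.36, 5.30 and 9 FPKM in DNBS_GR159897 libraries, against 355, 66.1 and 89.9 FPKM in Saline_GR159897 libraries, and at 36.8, 155 and 43.1 FPKM in DNBS_Vehicle libraries, against 91.3, 55.8 and 210 FPKM in Saline_Vehicle libraries. The groups given the antagonist did not overlap, and those given vehicle did. Its log2 fold change with DNBS was −4.0 ± 0.75 (SE; adjusted p = 0.0367) under GR159897 and −0.70 ± 0.75 (adjusted p = 0.762) under vehicle, and the difference between these was −3.31 ± 1.05 (adjusted p = 0.957), which did not pass. The mean over both arms was −2.35 ± 0.53 (adjusted p = 0.021). The call in the antagonist arm was lost when any of 5 libraries was left out: DNBS_GR159897 replicate 1 (adjusted p = 0.065), Saline_Vehicle replicate 1 (0.058) or 3 (0.0526), and Saline_GR159897 replicate 1 (0.158) or 3 (0.0963). The call on the mean over both arms was lost without Saline_Vehicle replicate 3 (adjusted p = 0.0601), and without the filter on low values. Sox10 stood at 1.3, 4.63 and 6.79 FPKM in DNBS_GR159897 libraries, against 239, 141 and 228 FPKM in Saline_GR159897 libraries, and at 9.04, 184 and 127 FPKM in DNBS_Vehicle libraries, against 179, 15.4 and 248 FPKM in Saline_Vehicle libraries. The 4 libraries lowest in Serpinh1 were thus also the 4 lowest in Sox10, and the part of glial RNA in the Serpinh1 values was not tested.

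The lysyl hydroxylases and the galactosyltransferase did not pass over both arms. Plod2, which hydroxylates the telopeptide lysines that later form stable crosslinks, had 7.71, 10.3 and 5.90 FPKM in DNBS_Vehicle libraries, against 3.38, 5.45 and 3.27 FPKM in Saline_Vehicle libraries. It had 5.03, 17.2 and 10.6 FPKM in DNBS_GR159897 libraries, against 2.76, 8.87 and 4.35 FPKM in Saline_GR159897 libraries. The vehicle groups did not overlap and the antagonist groups did; the log2 fold change was 0.86 ± 0.34 (SE; adjusted p = 0.122), and 1.07 ± 0.31 (adjusted p = 0.0505) without DNBS_GR159897 replicate 1. Plod1, a second lysyl hydroxylase, had 1.12 to 10.3 FPKM in DNBS libraries and 4.78 to 11.6 FPKM in saline libraries (−0.62 ± 0.35, adjusted p = 0.265). Colgalt1, which puts galactose on hydroxylysine, stood opposite ways in the arms. It had 9.26, 17.4 and 12.6 FPKM in DNBS_Vehicle libraries, all above the 1.84, 4.20 and 9.04 FPKM of Saline_Vehicle libraries. It had 8.01, 9.63 and 10.2 FPKM in DNBS_GR159897 libraries, all below the 24.9, 14 and 15.1 FPKM of Saline_GR159897 libraries. The difference between the DNBS changes was −2.22 ± 0.68 on the log2 scale (adjusted p = 0.957).

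Bmp1, the metalloproteinase that trims the C-terminal propeptide of fibrillar procollagens, was high in the DNBS_Vehicle group. It had 24.6, 26.2 and 22.2 FPKM in DNBS_Vehicle libraries, against 4.18, 15.03 and 4.33 FPKM in Saline_Vehicle libraries, and these groups did not overlap. It had 2.98, 13.5 and 13.7 FPKM in DNBS_GR159897 libraries, against 7.43, 11.6 and 6.56 FPKM in Saline_GR159897 libraries, where the lowest value was that of DNBS_GR159897 replicate 1. The log2 fold change over both arms was 0.88 ± 0.41 (SE; adjusted p = 0.178), and 1.19 ± 0.33 (adjusted p = 0.043) without that library.

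The 3 lysyl oxidases, which start crosslinking by oxidising lysines, went different ways. Lox was below 1 FPKM in every saline library. It had 8.82, 15.9 and 1.1 FPKM in DNBS_Vehicle libraries, against 0.17, 0.33 and 0.19 FPKM in Saline_Vehicle libraries. It had 2.18, 9.47 and 5.61 FPKM in DNBS_GR159897 libraries, against 0.20, 0.83 and 0.16 FPKM in Saline_GR159897 libraries. Every DNBS library, including DNBS_GR159897 replicate 1, was above every saline library. Lox rose by a log2 fold change of 2.33 ± 0.46 (SE; adjusted p = 0.0127) over both arms, with 2.52 ± 0.65 under vehicle (adjusted p = 0.138) and 2.14 ± 0.65 under GR159897 (adjusted p = 0.0934). On the scale of log2(FPKM + 1) the change of a gene this low in saline libraries is understated. Its exons overlap those of an antisense gene. Any use of strand is not given, so the values may hold reads of both genes.

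Loxl3, a relative of Lox, moved the other way. It had 1.11, 2.98 and 1.48 FPKM in DNBS_Vehicle libraries, against 4.19, 5.21 and 7.47 FPKM in Saline_Vehicle libraries, and 0.83, 1.19 and 2.23 FPKM in DNBS_GR159897 libraries, against 8.58, 3.78 and 7.34 FPKM in Saline_GR159897 libraries. All 6 DNBS libraries were below all 6 saline libraries, and the log2 fold change was −1.43 ± 0.29 (SE; adjusted p = 0.0135). The adjusted p stayed between 0.0122 and 0.0421 when libraries were left out in turn, and between 0.00247 and 0.0389 for Lox. Exons of Loxl3 overlap Htra2 on the opposite strand. Loxl1, which acts on elastin as well, was the most abundant of the 3 and did not pass: it had 59.3, 70.5 and 52.0 FPKM in DNBS_Vehicle libraries, against 17.9, 14.9 and 52.1 FPKM in Saline_Vehicle libraries. It had 1.38, 24.2 and 40.5 FPKM in DNBS_GR159897 libraries, against 32.5, 42.0 and 20.7 FPKM in Saline_GR159897 libraries (0.03 ± 0.62 on the log2 scale over both arms, adjusted p = 0.98). Without DNBS_GR159897 replicate 1 the estimate for Loxl1 was 0.66 ± 0.35 (adjusted p = 0.253).

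**Figure D3:**
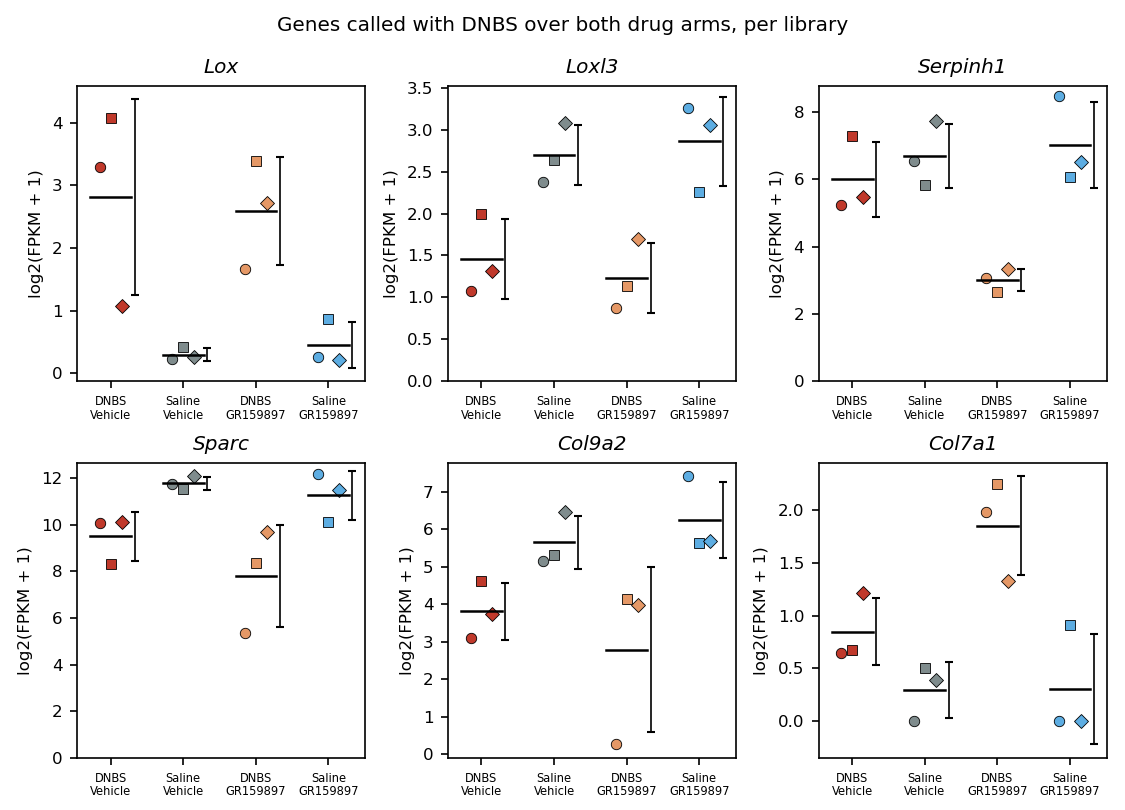
Level of Lox, Loxl3, Serpinh1, Sparc, Col9a2 and Col7a1 as log2(FPKM + 1) in each library; the circle, square and diamond are replicates 1, 2 and 3, the horizontal line is the group mean and the bar beside it 1 SD (n = 3). Lox in all 6 DNBS libraries (1.1 to 15.9 FPKM) lies above all 6 saline libraries (0.16 to 0.83 FPKM), and Loxl3 and Col9a2 in all 6 DNBS libraries lie below all 6 saline libraries.

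Sparc, the most abundant gene of the set, fell with DNBS. It had 1077, 314 and 1116 FPKM in DNBS_Vehicle libraries, against 3368, 2924 and 4270 FPKM in Saline_Vehicle libraries, with no overlap. It had 40.2, 327 and 811 FPKM in DNBS_GR159897 libraries, against 4654, 1093 and 2832 FPKM in Saline_GR159897 libraries, again with no overlap. The log2 fold change over both arms was −2.86 ± 0.72 (SE; adjusted p = 0.03), and −2.25 ± 0.46 (adjusted p = 0.0139) without DNBS_GR159897 replicate 1. It no longer passed without DNBS_Vehicle replicate 1 or 2, any 1 of the Saline_Vehicle libraries, or Saline_GR159897 replicate 1 or 3 (adjusted p up to 0.0795). Nor did it pass with sex as a term or without the filter on low values. The sums of the 9 glial markers were lower in DNBS_GR159897 than in Saline_GR159897 libraries with no overlap, and overlapped between the vehicle groups. Of 8 glial markers tested 4 passed as lower over both arms (Sox10, Erbb3, Ednrb and Gpr37l1), where 6.83% of all genes did. Without DNBS_GR159897 replicate 1, 2 of them passed as lower (Erbb3 and Gpr37l1), where 5.67% of all genes did. The part of glial RNA in the Sparc values was not tested.

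None of the 7 fibril-forming chains tested passed in any comparison with all 12 libraries. Col1a1, a chain of type I collagen, had 20.9, 24.3 and 31.9 FPKM in DNBS_Vehicle libraries, against 12.6, 9.58 and 23.7 FPKM in Saline_Vehicle libraries, and 7.46, 18.6 and 28.1 FPKM in DNBS_GR159897 libraries, against 16.1, 9.36 and 21.2 FPKM in Saline_GR159897 libraries. Its partner Col1a2 had 30.2, 25.8 and 18.3 FPKM in DNBS_Vehicle libraries, against 12.4, 16.2 and 19.2 FPKM in Saline_Vehicle libraries, and 10.3, 19.9 and 20.4 FPKM in DNBS_GR159897 libraries, against 11.4, 15.8 and 13.5 FPKM in Saline_GR159897 libraries. The lowest DNBS value of both was that of DNBS_GR159897 replicate 1, and the groups overlapped in both arms for Col1a1 and Col1a2. Their log2 fold changes over both arms were 0.44 ± 0.38 (SE; adjusted p = 0.473) and 0.42 ± 0.30 (adjusted p = 0.372). Without that library they were 0.69 ± 0.31 (adjusted p = 0.181) and 0.57 ± 0.24 (adjusted p = 0.155). Of the type V collagen that starts fibrils, Col5a1 had 39.9, 24.4 and 41.7 FPKM in DNBS_Vehicle libraries, against 31.1, 35.4 and 27.5 FPKM in Saline_Vehicle libraries, and 6.99, 43.1 and 38.9 FPKM in DNBS_GR159897 libraries, against 24.6, 32.7 and 40.4 FPKM in Saline_GR159897 libraries. Col5a2, a second type V chain, had 18.1, 10.8 and 10.1 FPKM in DNBS_Vehicle libraries, against 4.67, 8.18 and 10.6 FPKM in Saline_Vehicle libraries, and 4.45, 18.4 and 19.99 FPKM in DNBS_GR159897 libraries, against 7.3, 12.03 and 9.92 FPKM in Saline_GR159897 libraries. All these groups overlapped, and the log2 fold changes were −0.16 ± 0.43 (adjusted p = 0.846) for Col5a1, whose sign turned without DNBS_GR159897 replicate 1 and under both scalings, and 0.49 ± 0.38 (adjusted p = 0.421) for Col5a2. Without DNBS_GR159897 replicate 1 the estimate for Col5a2 was 0.81 ± 0.28 (adjusted p = 0.0904). Col27a1, a fibrillar chain of cartilage and other tissues, had 2.87, 2.55 and 3.73 FPKM in DNBS_Vehicle libraries, against 2.13, 3.92 and 2.48 FPKM in Saline_Vehicle libraries, and 1.62, 8.72 and 4.98 FPKM in DNBS_GR159897 libraries, against 1.27, 5.56 and 4.62 FPKM in Saline_GR159897 libraries, again with overlap. Col5a3, Col11a1 and Col27a1 had estimates between −0.81 and 0.19 on the log2 scale.

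The merged locus of Col3a1, the other main fibrillar chain of the gut wall, had 74.4, 41.0 and 46.2 FPKM in DNBS_Vehicle libraries, against 42.2, 49.6 and 59.3 FPKM in Saline_Vehicle libraries. It had 21.9, 46.8 and 67.1 FPKM in DNBS_GR159897 libraries, against 50.5, 47.0 and 58.6 FPKM in Saline_GR159897 libraries, and all 4 groups overlapped. Its log2 fold change over both arms was −0.13 ± 0.35 (SE; adjusted p = 0.836). The merged locus of Loxl2, a lysyl oxidase that also crosslinks type IV collagen, had 16.97, 43.6 and 21.7 FPKM in DNBS_Vehicle libraries, all above the 12.7, 11.2 and 10.7 FPKM of Saline_Vehicle libraries. It had 2.87, 4.68 and 21.9 FPKM in DNBS_GR159897 libraries, against 7.82, 13.4 and 11.8 FPKM in Saline_GR159897 libraries (0.25 ± 0.43 over both arms, adjusted p = 0.735). Of the 7 loci that merge such a gene with a neighbour 5 could be tested, and none of these passed in any comparison; a merged value cannot be divided between its genes.

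Of the 5 fibril-associated chains tested, which sit on the surface of fibrils, 2 passed as lower with DNBS (6.83% of all genes did). Col9a2, a chain of the type IX collagen best known from cartilage, had 7.59, 23.5 and 12.4 FPKM in DNBS_Vehicle libraries, against 34.8, 38.8 and 87.8 FPKM in Saline_Vehicle libraries. It had 0.20, 16.7 and 14.7 FPKM in DNBS_GR159897 libraries, against 171, 48.7 and 50.6 FPKM in Saline_GR159897 libraries. All 6 DNBS libraries lay below all 6 saline libraries, and the log2 fold change was −2.64 ± 0.65 (SE; adjusted p = 0.0282), or −2.01 ± 0.42 (adjusted p = 0.0148) without DNBS_GR159897 replicate 1. The call was lost without DNBS_Vehicle replicate 1, without any 1 of the Saline_Vehicle libraries or without Saline_GR159897 replicate 1 (adjusted p up to 0.077). Col9a2 also did not pass with a pseudocount of 0.1 or without the filter on low values. Its partner chains were low: Col9a3 averaged 1.71 FPKM and did not pass, and Col9a1 averaged 0.078 FPKM. Col14a1 had 2.43, 2.23 and 0.81 FPKM in DNBS_Vehicle libraries, against 4.56, 4.18 and 7.09 FPKM in Saline_Vehicle libraries, and 0.20, 2.68 and 1.04 FPKM in DNBS_GR159897 libraries, against 4.3, 4.58 and 2.36 FPKM in Saline_GR159897 libraries. The vehicle groups did not overlap and the antagonist groups did; the log2 fold change over both arms was −1.17 ± 0.32 (adjusted p = 0.039). It passed in 2 of the 12 fits that leave out a library (without DNBS_GR159897 replicate 2 or 3), and the adjusted p reached 0.0965 in the others. Of the 9 other settings Col14a1 passed in 1. Col16a1 (0.14 ± 0.54, adjusted p = 0.898) and Col12a1 (−0.24 ± 0.42, adjusted p = 0.746) did not pass. Without DNBS_GR159897 replicate 1 they were 0.685 ± 0.283 (adjusted p = 0.143) and 0.15 ± 0.29 (adjusted p = 0.779).

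Serpinh1 and Col9a2 lie on different chromosomes, at chr7:99345376-99353239 (minus strand) and chr4:121039385-121055322 (plus strand) of GRCm38. Their promoter windows are shown because both genes fell over both arms. Each window runs from 250 bases before to 50 bases after a RefSeq start (GRCm38.p6), at chr7:99353190-99353489 (minus strand) for Serpinh1 and chr4:121039316-121039615 (plus strand) for Col9a2. The capitals mark the letters GGGCGG, the core of a GC box, on either strand.
Serpinh1: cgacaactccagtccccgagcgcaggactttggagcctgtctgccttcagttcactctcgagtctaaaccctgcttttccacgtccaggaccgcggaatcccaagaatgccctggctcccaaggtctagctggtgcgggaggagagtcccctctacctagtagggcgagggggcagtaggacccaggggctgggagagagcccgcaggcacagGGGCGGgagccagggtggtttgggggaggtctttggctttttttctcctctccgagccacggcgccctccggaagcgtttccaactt
Col9a2: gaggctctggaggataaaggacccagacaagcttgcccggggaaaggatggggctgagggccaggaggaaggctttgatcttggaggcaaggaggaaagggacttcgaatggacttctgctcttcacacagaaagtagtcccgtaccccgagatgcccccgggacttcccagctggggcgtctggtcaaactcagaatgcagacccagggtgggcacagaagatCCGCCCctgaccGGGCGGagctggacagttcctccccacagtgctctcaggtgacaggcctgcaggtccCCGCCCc
The Serpinh1 window held 1 such match and the Col9a2 window 3. RefSeq windows were found for 35 of the 47 genes (39 windows, since some genes have several), and 26 of these 39 held GGGCGG on either strand, against 35.7% of 32851 windows of the same length. CCAAT was in 12 of the 39, against 37.4% of all windows, and TATAAA in 5, against 13.6%. A match says only that the letters are there.

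The basement membrane chains Col4a1 and Col4a2, which assemble together into the main type IV collagen molecule, were higher in 5 of the 6 DNBS libraries. Col4a1 had 75.3, 65.2 and 101 FPKM in DNBS_Vehicle libraries, against 11.8, 35.1 and 35.3 FPKM in Saline_Vehicle libraries, and 9.26, 72.5 and 81.5 FPKM in DNBS_GR159897 libraries, against 29.9, 39.9 and 43.1 FPKM in Saline_GR159897 libraries. Col4a2 had 48.9, 53.4 and 74.4 FPKM in DNBS_Vehicle libraries, against 22.5, 31.4 and 20.5 FPKM in Saline_Vehicle libraries, and 5.97, 60.9 and 77.2 FPKM in DNBS_GR159897 libraries, against 20.1, 30.4 and 33.1 FPKM in Saline_GR159897 libraries. For both chains the vehicle groups did not overlap, and under GR159897 only replicate 1 of the DNBS libraries was below the saline libraries. The log2 fold changes over both arms were 0.85 ± 0.52 (SE; adjusted p = 0.303) for Col4a1 and 0.70 ± 0.53 (adjusted p = 0.405) for Col4a2. Without DNBS_GR159897 replicate 1 they were 1.34 ± 0.32 (adjusted p = 0.024) and 1.26 ± 0.25 (adjusted p = 0.0127). The ratio of Col4a1 to Col4a2 was 1.06 to 1.55 in DNBS libraries, against 0.525 in Saline_Vehicle replicate 1 and 1.12 to 1.73 in the other saline libraries.

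The genes lie head to head, Col4a1 at chr8:11198423-11312826 on the minus strand and Col4a2 at chr8:11312805-11449287 on the plus strand (GRCm38), and their annotated starts overlap by 22 bases. Their RefSeq promoter windows (GRCm38.p6; chr8:11312777-11313076 on the minus strand for Col4a1, chr8:11312555-11312854 on the plus strand for Col4a2) are shown because the pair shares this stretch. Each is written 5′ to 3′ along its own gene, and the capitals mark the 78 bases that both windows hold, on opposite strands.
Col4a1: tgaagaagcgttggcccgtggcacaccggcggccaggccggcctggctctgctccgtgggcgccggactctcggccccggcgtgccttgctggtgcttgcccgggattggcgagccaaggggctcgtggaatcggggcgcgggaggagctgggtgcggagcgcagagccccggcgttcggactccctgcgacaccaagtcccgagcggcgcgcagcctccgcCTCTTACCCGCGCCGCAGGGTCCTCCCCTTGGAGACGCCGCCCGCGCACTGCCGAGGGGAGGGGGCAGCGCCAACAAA
Col4a2: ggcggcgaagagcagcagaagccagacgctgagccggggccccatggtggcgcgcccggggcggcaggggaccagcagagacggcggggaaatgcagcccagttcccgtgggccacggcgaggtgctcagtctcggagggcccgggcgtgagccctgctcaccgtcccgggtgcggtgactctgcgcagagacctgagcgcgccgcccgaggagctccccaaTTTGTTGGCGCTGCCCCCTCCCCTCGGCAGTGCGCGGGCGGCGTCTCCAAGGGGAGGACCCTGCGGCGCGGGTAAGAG
GGGCGG was found on either strand 1 time in the Col4a1 window and 3 times in the Col4a2 window, CCAAT 1 time in each, and TATAAA in neither. Any use of strand is not given for these values, so reads from the overlapping starts may be mixed between the genes. Col4a4, a chain of a more restricted basement membrane network, had 0.08 to 2.02 FPKM in DNBS libraries and 1.40 to 2.70 FPKM in saline libraries (−0.85 ± 0.27, adjusted p = 0.0648).

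Col8a1, a short network-forming chain made by vessel walls and other tissues, was also high in the DNBS_Vehicle group. It had 41.8, 77.7 and 52.7 FPKM in DNBS_Vehicle libraries, against 18.1, 9.66 and 7.92 FPKM in Saline_Vehicle libraries, and these groups did not overlap. It had 3.95, 20.8 and 51.9 FPKM in DNBS_GR159897 libraries, against 24.6, 9.57 and 20.5 FPKM in Saline_GR159897 libraries, which overlapped. The log2 fold change over both arms was 1.1 ± 0.52 (SE; adjusted p = 0.183), and 1.56 ± 0.36 (adjusted p = 0.0224) without DNBS_GR159897 replicate 1. Under vehicle it was 2.21 ± 0.73 (adjusted p = 0.235) with all libraries and 2.21 ± 0.48 (adjusted p = 0.049) without that library. Of 7 endothelial markers, none was at 0 in a whole group, and they summed to 4.80 to 12.1 FPKM in DNBS_Vehicle libraries, against 3.20 to 6.41 FPKM in Saline_Vehicle libraries. They summed to 5.30 to 19.9 FPKM in DNBS_GR159897 libraries, against 1.94 to 11.5 FPKM in Saline_GR159897 libraries. Cldn5 made up most of each sum in which it was above 1 FPKM. It had 0, 0 and 9.29 FPKM in DNBS_Vehicle libraries, against 2.45, 3.86 and 3.23 FPKM in Saline_Vehicle libraries. Where Cldn5 was 0, the sum was that of the others only. No other endothelial marker exceeded 2.73 FPKM (Cdh5 in DNBS_Vehicle replicate 2). Between the vehicle groups Emcn was higher with DNBS with no overlap (0.47 to 1.39 FPKM, against 0 to 0.2 FPKM), and the others overlapped. Between the antagonist groups Pecam1 and Cdh5 were higher with no overlap, and the others overlapped. The 6 pericyte markers summed to 20.96 to 50.3 FPKM in DNBS_Vehicle libraries, against 30.8 to 63.7 FPKM in Saline_Vehicle libraries, and to 12.8 to 71.4 FPKM in DNBS_GR159897 libraries, against 19.3 to 44.8 FPKM in Saline_GR159897 libraries. The part of vessel cells in the Col4a1, Col4a2 and Col8a1 values was not tested.

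**Figure D4:**
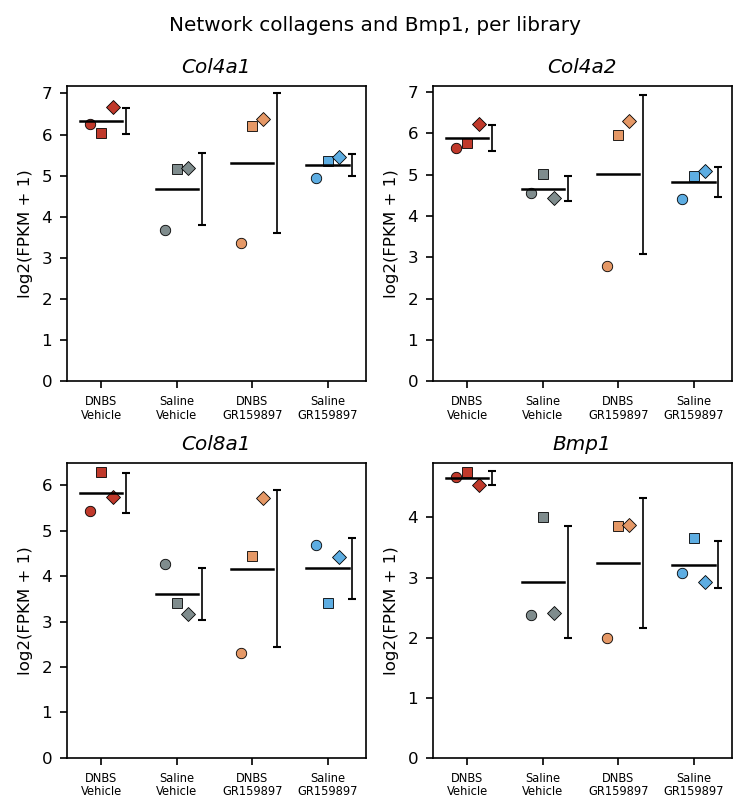
Level of Col4a1, Col4a2, Col8a1 and Bmp1 as log2(FPKM + 1) in each library; the circle, square and diamond are replicates 1, 2 and 3, the horizontal line is the group mean and the bar beside it 1 SD (n = 3). In each panel the 3 DNBS_Vehicle libraries lie above the 3 Saline_Vehicle libraries, and DNBS_GR159897 replicate 1 is the lowest library of all 12.

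Col7a1, whose anchoring fibrils tie basement membranes to the tissue below, was low throughout and higher with DNBS. It had 0.57, 0.60 and 1.32 FPKM in DNBS_Vehicle libraries, against 0, 0.42 and 0.31 FPKM in Saline_Vehicle libraries. It had 2.95, 3.76 and 1.52 FPKM in DNBS_GR159897 libraries, against 0, 0.88 and 0 FPKM in Saline_GR159897 libraries. Neither pair of groups overlapped, and the log2 fold change was 1.05 ± 0.26 (SE; adjusted p = 0.0288), or 1.02 ± 0.28 (adjusted p = 0.0419) without DNBS_GR159897 replicate 1. It no longer passed when DNBS_Vehicle replicate 3, Saline_Vehicle replicate 1 or 3, DNBS_GR159897 replicate 2, or Saline_GR159897 replicate 1 or 3 was left out (adjusted p up to 0.0747). Nor did it pass without the filter on low values. Mir711 overlaps its exons on the same strand. The epithelial markers summed to 14.6 FPKM in DNBS_GR159897 replicate 2, the library with the most Col7a1, against 1248 FPKM in replicate 1 of that group, and the part of epithelial RNA in the Col7a1 values was not tested.

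The beaded filament chains did not pass. Col6a1 had 37.3, 27.2 and 58.7 FPKM in DNBS_Vehicle libraries, against 49.7, 44.1 and 18.1 FPKM in Saline_Vehicle libraries, and 3.55, 18.9 and 45.8 FPKM in DNBS_GR159897 libraries, against 44.5, 24.6 and 47.9 FPKM in Saline_GR159897 libraries (−0.53 ± 0.53 over both arms, SE; adjusted p = 0.541). Col6a2, which joins it in type VI collagen, had 15.98, 14.5 and 6.26 FPKM in DNBS_Vehicle libraries, against 9.78, 6.21 and 7.2 FPKM in Saline_Vehicle libraries, and 3.15, 11.7 and 21.5 FPKM in DNBS_GR159897 libraries, against 8.48, 3.46 and 15.9 FPKM in Saline_GR159897 libraries. Col6a3, the longest of these chains, had 5.63, 9.55 and 4.95 FPKM in DNBS_Vehicle libraries, against 6.85, 8.71 and 7.79 FPKM in Saline_Vehicle libraries, and 5.86, 8.34 and 7.17 FPKM in DNBS_GR159897 libraries, against 4.89, 12.7 and 9.0 FPKM in Saline_GR159897 libraries. The groups of all 3 chains overlapped in both arms, and the log2 fold changes were 0.39 ± 0.45 (adjusted p = 0.615) for Col6a2 and −0.22 ± 0.28 (adjusted p = 0.654) for Col6a3. Without DNBS_GR159897 replicate 1 the estimates were −0.07 ± 0.37 for Col6a1, 0.72 ± 0.38 for Col6a2 and −0.16 ± 0.285 for Col6a3, and none passed. Col28a1, a type VI-like chain described in mice at Schwann cells of peripheral nerve, had 15.5 to 30.2 FPKM in the DNBS libraries other than DNBS_GR159897 replicate 1 (0.34 FPKM), against 33.7 to 57.2 FPKM in saline libraries. All 6 DNBS libraries were below all 6 saline libraries, yet its log2 fold change of −1.53 ± 0.65 did not pass (adjusted p = 0.142), nor did −0.81 ± 0.26 without that library (adjusted p = 0.0725).

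The chains with an endostatin-like end and the membrane-spanning chains gave 2 calls. Col18a1, the heparan sulfate-bearing collagen of basement membranes, had 55.6, 109 and 76.5 FPKM in DNBS_Vehicle libraries, against 103, 98.9 and 80.1 FPKM in Saline_Vehicle libraries. It had 2.66, 29.4 and 93.7 FPKM in DNBS_GR159897 libraries, against 110, 83.1 and 108 FPKM in Saline_GR159897 libraries (−1.24 ± 0.62 over both arms, adjusted p = 0.213). Its groups overlapped in both arms. Without DNBS_GR159897 replicate 1 the estimate was −0.59 ± 0.32 (adjusted p = 0.258). The relative Col15a1 had 0.98, 2.85 and 0.65 FPKM in DNBS_Vehicle libraries, against 3.81, 2.32 and 2.64 FPKM in Saline_Vehicle libraries, and 0.85, 1.28 and 1.66 FPKM in DNBS_GR159897 libraries, against 3.95, 4.02 and 3.85 FPKM in Saline_GR159897 libraries. Only the antagonist groups were apart, and the log2 fold change was −0.94 ± 0.26 (adjusted p = 0.0398). Col23a1, a transmembrane chain, had 0.87, 0.08 and 1.44 FPKM in DNBS_Vehicle libraries, against 3.68, 4.93 and 2.46 FPKM in Saline_Vehicle libraries, and 0.73, 1.08 and 1.81 FPKM in DNBS_GR159897 libraries, against 2.4, 2.77 and 1.39 FPKM in Saline_GR159897 libraries. Only its vehicle groups were apart, and the log2 fold change was −0.98 ± 0.27 (adjusted p = 0.0414). Each of them passed in 2 of the 12 fits that left out a library, Col15a1 without DNBS_Vehicle replicate 2 or DNBS_GR159897 replicate 3 and Col23a1 without DNBS_Vehicle replicate 3 or DNBS_GR159897 replicate 3. In the other such fits the adjusted p reached 0.0951 for Col15a1 and 0.0942 for Col23a1. Of the 9 other settings each passed in 2. Col13a1, a transmembrane collagen of neuromuscular junctions, had 0.29, 0.08 and 0 FPKM in DNBS_Vehicle libraries, against 1.44, 2.22 and 0.30 FPKM in Saline_Vehicle libraries, and 0.24, 0.46 and 0.11 FPKM in DNBS_GR159897 libraries, against 0.55, 1.23 and 0.01 FPKM in Saline_GR159897 libraries, and did not pass.

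The next question was whether the antagonist alters these genes, with or without DNBS. None of the 34 passed in DNBS_GR159897 against DNBS_Vehicle or in Saline_GR159897 against Saline_Vehicle, and none passed in the interaction, where in each case 0.0% of all genes passed (limma). These comparisons share libraries with those above, and with each other. With the antagonist the median over the 34 genes was −0.56 in DNBS libraries, against −0.21 over all genes, and without DNBS_GR159897 replicate 1 it was 0.04, against −0.06 over all genes. In DNBS_GR159897 against DNBS_Vehicle the estimate for Serpinh1 was −2.98 ± 0.75 (SE; adjusted p = 0.534), for Loxl1 −2.17 ± 0.87, for Bmp1 −1.42 ± 0.58 and for Col7a1 1.01 ± 0.37 (each adjusted p = 0.607). Without DNBS_GR159897 replicate 1 the estimates were −3.01 ± 0.81 for Serpinh1, −0.916 ± 0.525 for Loxl1, −0.79 ± 0.49 for Bmp1 and 0.945 ± 0.417 for Col7a1. None of them passed. In Saline_GR159897 against Saline_Vehicle the gene of the 34 with the smallest p was Colgalt1 (1.80 ± 0.48, adjusted p = 1.0). The estimates of the 34 genes ran from −0.55 to 1.80. A change of this size in a single gene was not detectable after adjustment with 3 libraries per group, which does not show that the groups are alike.

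**Figure D5:**
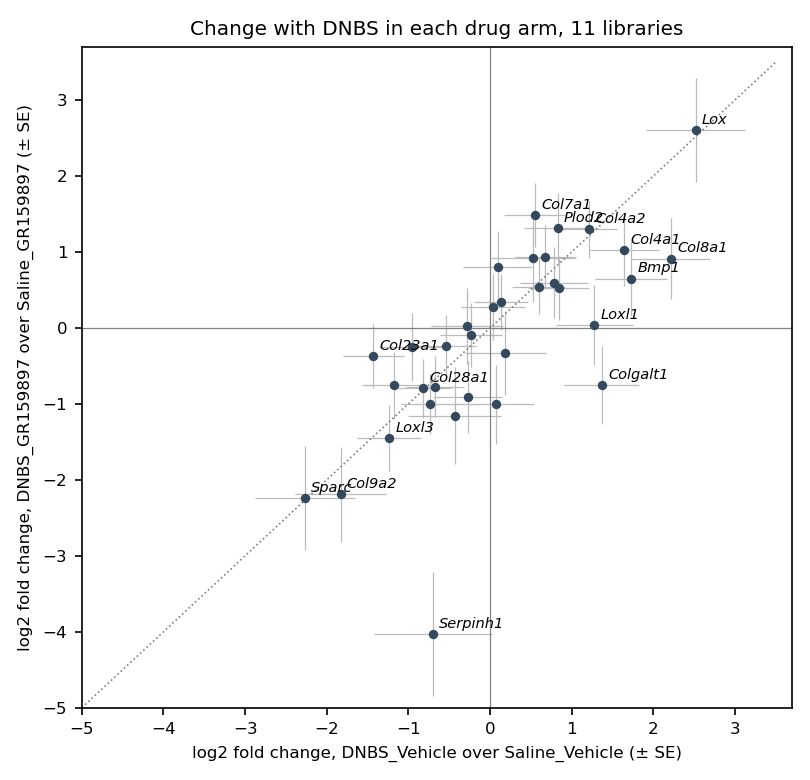
Log2 fold change of the 34 genes with DNBS under vehicle (x axis, DNBS_Vehicle over Saline_Vehicle) and under GR159897 (y axis, DNBS_GR159897 over Saline_GR159897), with SE, without DNBS_GR159897 replicate 1; the dotted line marks equal change. Lox (2.52 and 2.61), Sparc (−2.27 and −2.24) and Col9a2 (−1.83 and −2.19) lie near the line, and Serpinh1 (−0.70 and −4.03) and Colgalt1 (1.37 and −0.75) lie furthest from it; no difference between arms passed.

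Further genes of the collagen pathway were read from 8 lists, of which 50 genes were tested. Over both arms 3 of the 50 rose with DNBS and 3 fell (9.6% of all genes passed), and their median log2 fold change was −0.33, against −0.18 over all genes. Timp1, an inhibitor of matrix metalloproteinases, had 560, 430 and 384 FPKM in DNBS_Vehicle libraries, against 18.9, 3.26 and 18.7 FPKM in Saline_Vehicle libraries, and 23.4, 212 and 333 FPKM in DNBS_GR159897 libraries, against 6.96, 15.7 and 29.5 FPKM in Saline_GR159897 libraries. The vehicle groups did not overlap, and the antagonist groups did, through DNBS_GR159897 replicate 1. Timp1 rose by a log2 fold change of 4.09 ± 0.65 (SE; adjusted p = 0.00513) over both arms and 5.26 (adjusted p = 0.0343) under vehicle. Its call under vehicle was lost without any 1 of the vehicle libraries or without Saline_GR159897 replicate 2 (adjusted p up to 0.147).

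Creb3l1, a transcription factor that switches on collagen and secretion genes in bone of mice, had 14.7, 4.49 and 8.41 FPKM in DNBS_Vehicle libraries, against 1.62, 1.51 and 2.34 FPKM in Saline_Vehicle libraries. It had 14.6, 4.56 and 10.5 FPKM in DNBS_GR159897 libraries, against 3.46, 1.28 and 0 FPKM in Saline_GR159897 libraries, so that all 6 DNBS libraries were higher (1.97 ± 0.41, SE; adjusted p = 0.0149). It was the 1 gene of 5 in the folding and export list that passed. Of the collagen degradation list 1 of 8 passed (Timp1), where 9.6% of all genes did. Without DNBS_GR159897 replicate 1 Mmp9 (1.61, adjusted p = 0.0492) and Mmp14 (1.08, adjusted p = 0.0366), both matrix metalloproteinases, passed as well, where 9.5% of all genes did. Mmp9 reached 1 FPKM in 4 libraries, all of them DNBS libraries. It thus entered the test only through the libraries where it is high. Of 3 other crosslinking or glycosylation genes 0 passed, and the 1 other propeptide protease tested did not pass. Of 10 genes of proline hydroxylation 0 passed. P4hb, the disulfide isomerase in prolyl 4-hydroxylase, had 47.5 to 203 FPKM in DNBS libraries and 59.2 to 152 FPKM in saline libraries.

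With all 12 libraries, all 6 fibril-associated proteoglycans tested had estimates below 0, with a median of −0.89, against −0.18 over all genes. DNBS_GR159897 replicate 1 was the lowest library for Dcn (1.88 FPKM), Lum, Ogn and Aspn, though not for Bgn and Prelp. For Dcn the other DNBS_GR159897 libraries lay above all Saline_GR159897 libraries. The median without that replicate is not given, so how far it shapes the shared direction was not tested. Of the 6, 2 passed as lower, where 6.83% of all genes did. Ogn, or osteoglycin, had 9.04, 7.93 and 6.22 FPKM in DNBS_Vehicle libraries, against 46.1, 46.0 and 29.1 FPKM in Saline_Vehicle libraries, and 1.74, 10.3 and 4.54 FPKM in DNBS_GR159897 libraries, against 11.6, 29.2 and 19.9 FPKM in Saline_GR159897 libraries. All DNBS libraries were below all saline libraries (−2.04 ± 0.38, SE; adjusted p = 0.00996). Bgn, or biglycan, had 10.7, 14.2 and 47.2 FPKM in DNBS_Vehicle libraries, against 55.6, 55.9 and 76.4 FPKM in Saline_Vehicle libraries, and 4.96, 4.35 and 11.1 FPKM in DNBS_GR159897 libraries, against 66.6, 9.25 and 65.4 FPKM in Saline_GR159897 libraries. Its vehicle groups were apart and its antagonist groups overlapped. It fell by 1.96 ± 0.53 on the log2 scale (adjusted p = 0.0377), and passed in 3 of the 12 fits that left out a library (adjusted p up to 0.0984 in the others; without DNBS_GR159897 replicate 1 it was 0.0544). Itga2, the α2 chain of a collagen-binding integrin, had 8.33, 4.07 and 3.45 FPKM in DNBS_Vehicle libraries, against 9.6, 8.4 and 6.94 FPKM in Saline_Vehicle libraries, and 1.17, 3.26 and 2.44 FPKM in DNBS_GR159897 libraries, against 10.7, 8.54 and 8.12 FPKM in Saline_GR159897 libraries. It was the 1 of 4 receptors that fell (−1.15 ± 0.28, adjusted p = 0.0267), and passed in 5 of those fits, with an adjusted p up to 0.0674. The calls of Timp1, Creb3l1 and Ogn over both arms held in all 12.

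Markers of cell types known for making collagen were read beside these values. The 10 fibroblast markers, of which Fap was listed at 0 in all 3 DNBS_Vehicle libraries, summed to 30.9 to 51.5 FPKM in DNBS_Vehicle libraries, against 47.7 to 65.5 FPKM in Saline_Vehicle libraries. They summed to 22.3 to 39.1 FPKM in DNBS_GR159897 libraries, against 25.9 to 35.5 FPKM in Saline_GR159897 libraries, where Pi16 was listed at 0. Dcn, Lum and Dpt made up most of these sums in every library, so the sums say little of the others. Pdgfra had 4.66, 1.7 and 4.02 FPKM in DNBS_Vehicle libraries, against 1.39, 1.98 and 1.06 FPKM in Saline_Vehicle libraries. Thy1 had 5.0, 6.05 and 3.49 FPKM, against 2.16, 3.79 and 1.17 FPKM. Between the vehicle groups Dcn was lower with DNBS with no overlap, and all the others overlapped. The 10 smooth muscle markers summed to 2444 to 6881 FPKM in DNBS_Vehicle libraries, against 3403 to 4522 FPKM in Saline_Vehicle libraries, and to 313 to 4001 FPKM in DNBS_GR159897 libraries, against 1775 to 3304 FPKM in Saline_GR159897 libraries. The 6 neutrophil markers summed to 9.14 to 574 FPKM in DNBS_Vehicle libraries, against 0.37 to 1.94 FPKM in Saline_Vehicle libraries, and to 41.2 to 246 FPKM in DNBS_GR159897 libraries, against 0.34 to 12.1 FPKM in Saline_GR159897 libraries. The 11 macrophage markers summed to 56.6 to 274 FPKM in DNBS_Vehicle libraries, against 69.96 to 117 FPKM in Saline_Vehicle libraries, and to 47.2 to 199 FPKM in DNBS_GR159897 libraries, against 47.4 to 57.2 FPKM in Saline_GR159897 libraries. Lyz2 made up most of this sum in every library but DNBS_GR159897 replicate 1. It had 226, 31.5 and 61.3 FPKM in DNBS_Vehicle and 101, 60.8 and 57.6 FPKM in Saline_Vehicle. The sum thus says little of the other macrophage markers. Between the vehicle groups Cd68 and Mrc1 were higher with DNBS with no overlap, and the others overlapped. Between the antagonist groups Csf1r, Adgre1, Mrc1, C1qc, Cd163 and Aif1 were higher with no overlap, and Cd68, Lyz2, C1qa, C1qb and Fcgr1 overlapped. Several of these values lay below 1 FPKM. Which of these cells the collagen RNA came from was not tested.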

How the data were processed

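The authors deposited FPKM values, 1 for each library at each assembled locus. StringTie 1.3, HISAT2 2.0, FastQC 0.10.1 and cutadapt 1.10 are named, without roles, by the submitters' processing notes; the genome build and any use of strand are not given in the sources used here. Since the depth of the libraries is unknown, counting error could not be estimated. Among 99547 loci, 24432 carried an annotated transcript, and 1 locus per symbol (the highest mean) was kept; 7 loci that merge a collagen or processing gene with another gene were kept apart. Every column of values was mapped to a sample by its title, and no pair of libraries was identical. Positions come from GENCODE (GRCm38) through transcript identifiers, and all 47 genes matched 1 gene each; exons of 9 tested genes overlap a gene on the opposite strand and those of 1 on the same strand.

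The 12778 genes that reached 1 FPKM in 3 or more libraries were analysed as log2(FPKM + 1) with limma 3.58.1 in R 4.3.3 (trended, robust prior), with 1 mean per group over all 12 libraries and 8 residual degrees of freedom. Gfap, blank in 3 libraries, was left out of comparisons with Saline_Vehicle. Tests were two-sided, adjusted by Benjamini-Hochberg over all genes, with a threshold of 0.05. The procedure was tested on simulated data with equal libraries, genes that vary independently, and changed genes in DNBS_Vehicle only. A library unlike the rest of its group, such as DNBS_GR159897 replicate 1, was not simulated. Tables and plots were made in Python 3.11.15 with pandas 2.3.3, numpy 2.4.6 and matplotlib 3.10.9. Nothing in the labels says that replicates of a group share a litter or day, and p-values measure the spread between these samples.

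The genes, lists and comparisons were chosen with earlier results of these data known. Values per library are given for genes that passed in any comparison, for those with the 3 smallest p in each direction, and for a fixed set standing for the classes; others are given by range, level or change. A result for 1 gene of the pathway lists is not reported here. The alternatives were another pseudocount (0.1), 2 other filters, 2 rescalings, a sex term, a replicate block, library weights, a fit of only the groups compared, and leaving out each library. Rescaling together with leaving out DNBS_GR159897 replicate 1, and counting merged loci, were added after seeing the data.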

Additional observations from a re-analysis of the deposited data

Results flagged for a closer look

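Colgalt1 stood in opposite directions in the drug arms: every DNBS_Vehicle library (9.26 to 17.4 FPKM) was above every Saline_Vehicle library (1.84 to 9.04 FPKM), and every DNBS_GR159897 library (8.01 to 10.2 FPKM) was below every Saline_GR159897 library (14 to 24.9 FPKM). The difference between the DNBS changes was −2.22 on the log2 scale, with an adjusted p of 0.957 (limma), so it did not pass. Exons of Colgalt1 overlap Unc13a on the opposite strand.

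A pair of assembled loci that carry the name of Loxl1 but no annotated transcript took no part in the comparisons. Their summed FPKM was 3.06, 3.85 and 4.30 in DNBS_Vehicle libraries, against 0, 1.64 and 0.41 in Saline_Vehicle libraries, and 0.34, 12.2 and 6.26 in DNBS_GR159897 libraries, against 0.38, 1.95 and 0.93 in Saline_GR159897 libraries. The 5 DNBS libraries other than DNBS_GR159897 replicate 1 averaged 5.92 FPKM and lay above all 6 saline libraries. No test was made.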

How the results depend on the processing

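Over both arms the number of the 34 genes that passed was 9, and it was 5 with a pseudocount of 0.1, 2 without a filter on low values, 5 with a sex term and 16 with library weights; leaving out 1 library gave 2 to 10. Over all genes these 4 settings called 879, 442, 800 and 3009, against 1226, and 397 to 1655 with 1 library left out. In DNBS_GR159897 against Saline_GR159897 the number was 1, and it was 0 without a filter, with a sex term, with the replicate block, with the fit of only the groups compared, and with rescaling to the annotated total and DNBS_GR159897 replicate 1 left out; it was 9 with library weights and 0 to 6 with 1 library left out. In DNBS_Vehicle against Saline_Vehicle it was 0, and it was 5 with library weights, 1 with rescaling and that library left out, and 0 to 1 with 1 library left out. Over all genes the vehicle arm called 41, and 514 with weights, 13 without a filter, 21 with the pseudocount, 24 with a sex term, 18 with the block, 63 after centring, 110 with only its groups, 186 with rescaling and that library left out, and 0 to 176 with 1 library left out. The antagonist arm called 176, and in the same order 2154, 18, 42, 25, 31, 94, 9 and 60, 91 after rescaling alone, and 4 to 604 with 1 library left out. The cause was not tested. Saline_GR159897 against Saline_Vehicle, DNBS_GR159897 against DNBS_Vehicle and the interaction gave 0 of 34 under every alternative run. Among the values followed under every setting (the genes called and those with the 3 smallest p in each direction), 1 turned: Col27a1 in DNBS_GR159897 against DNBS_Vehicle was −0.022 on the log2 scale without DNBS_GR159897 replicate 2, and up to 0.923 (without replicate 1), against 0.41 with all libraries. Over all 34 genes, leaving out DNBS_GR159897 replicate 1 turned the sign of 13 estimates in that comparison, 10 in the interaction, 6 in the antagonist arm and 2 over both arms (Col5a1 to 0.24, Col12a1 to 0.15), and Col5a1 also turned under both scalings; no estimate that passed in either fit turned under any alternative run. No symbol of the set had several annotated loci, so there were none to sum. Loci without an annotated transcript that carry these names were not added to the values.

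For samples of different groups with the same replicate number the correlation of deviations ran from −0.09 to 0.20 over 18 pairs, with 2 pairs above 0.1. Over 36 pairs with different numbers it ran from −0.265 to 0.22, with 3 above 0.1. No pairing by number was seen, but with 3 libraries per group these values cannot exclude it. With the replicate block 6 of 34 genes passed over both arms, and Serpinh1 in the antagonist arm had an adjusted p of 0.0673.

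With 3 libraries per group, unknown depth and unequal shares of annotated RNA, small changes and changes of genes below 1 FPKM could not be resolved.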

Other observations

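Beside the annotated genes, 138 assembled loci without an annotated transcript carry the name of 26 of the 47 genes. The 7 loci named for Bmp1 summed to 8.64, 1.63 and 1.62 FPKM in DNBS_Vehicle libraries, against 0.07, 0 and 0.86 FPKM in Saline_Vehicle libraries. They summed to 22.7, 41.2 and 9.89 FPKM in DNBS_GR159897 libraries, against 0.25, 3.07 and 4.38 FPKM in Saline_GR159897 libraries. These values were not tested and are not part of the Bmp1 values above.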
